A study of Mus musculus with 8 samples.

Results

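The cells described here are dividing infiltrating macrophages, found by single-cell RNA sequencing in the mouse cortex 6 days after photothrombosis (PT), a light-induced clotting of cortical vessels that models ischemic stroke. A droplet was kept with at least 2000 unique molecular identifiers (UMIs, each standing for 1 captured transcript) and under 20% of them mitochondrial. Levels in single cells were scaled to 10000 UMIs. The macrophage gate asked for a summed level of at least 10 for Ms4a7, Arg1, Gpnmb and Fabp5 and at least 3 for Tyrobp. It capped P2ry12, Tmem119, Sall1 and Siglech (microglia) below 1, Cd163, Lyve1 and Cbr2 (border-associated macrophages) below 0.5, Ly6c2, Chil3 and Plac8 (monocytes) below 3, and Col1a1 and Col1a2 (fibroblasts) below 10. A gate cell counted as dividing when at least 3 of the 5 genes Mki67, Top2a, Cenpf, Cdk1 and Ccnb2 had a UMI. The members were thus chosen by their measured levels of these 22 genes. The rule found 106 dividing cells among 1949 gate cells and 46216 droplets kept from 8 mice, which is 0.229% of all droplets. The other 1843 gate cells, called non-dividing, are the main comparison.

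The labels give all 8 mice as adult females of genotype Bl/J6, whereas the methods of the study name C57BL/6N mice of both sexes for its animals in general. All received PT to the right sensorimotor cortex, and the injury site with the spared tissue around it was taken at day 6 without enrichment of any cell type. Control mice received saline and ancrod mice received 2.4 U per day of ancrod, a venom enzyme that depletes fibrinogen, from minipumps placed 2 days before PT. Each group held 4 mice with 1 library each, and injury and sequencing were done in 2 batches, batch 1 holding mice 1 to 3 and batch 2 holding mouse 4 from both groups. The control mice gave 3, 14, 11 and 4 dividing cells and the ancrod mice 19, 8, 32 and 15. Total UMIs ran from 97861434 to 122758649 in the control libraries and from 126682918 to 142139441 in the ancrod libraries, so that depth did not overlap between the groups, while the medians per non-dividing gate cell did, at 21752 to 28358 and 20270 to 27938. Between 3 and 15 cell barcodes were shared by any pair of libraries.

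Monocyte-derived macrophages enter injured brain from the blood, where they clear dead cells, lipid and fibrin and help to build the scar. Some of them divide in the tissue. A dividing cell passes from G1, in which cyclin D with Cdk4 opens the cycle, through S phase, in which DNA is copied, to G2 and M, in which Cdk1 with cyclin B drives the chromosomes onto the spindle. Mki67 encodes a protein that coats mitotic chromosomes, Top2a untangles copied DNA, Cenpf belongs to the kinetochore, Cdk1 is the mitotic kinase and Ccnb2 is cyclin B2.

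The rule was set beside markers it did not use. Of 12 genes of infiltrating macrophages 11 were higher in every dividing sum than in any non-dividing sum of a microglia gate. The exception was Ifitm3, an interferon-induced membrane protein, at 122 ± 101 CPM (counts per 1000000 UMIs, SD, n = 8 mice) against 300.2 ± 59.7 in that gate and 1565 ± 228 in a monocyte gate. Lyz2, the lysozyme of myeloid cells, was at 21457 ± 4833 CPM in the dividing cells, 847 ± 47.2 in the microglia gate and 10528 ± 2406 in the monocyte gate. It was unlike most of its list there, since only 2 of the 12 genes had a mean above the monocyte gate and 4 were below it in every mouse, with Ccr2 at 68.4 ± 98.2 against 393 ± 67.9 and Cd44 at 282 ± 105 against 1027 ± 245. Of 12 microglia genes outside the rule 10 were lower in every dividing sum than in any non-dividing sum of the microglia gate. Some were nevertheless present. Fcrls, a receptor-like protein used as a microglia marker and not among these 10, was at 678 ± 350 CPM against 1076 ± 99.6 in the microglia gate. Slc2a5 was at 0 in every dividing sum. Of 8 genes of border-associated macrophages outside the rule, 2 were above the microglia gate in every mouse and 0 above the monocyte gate in every mouse. These 2 were Pf4 at 553 ± 327 CPM and F13a1 at 411 ± 152. They were at 10.6 and 2.05 in the microglia gate and 138 and 303 in the monocyte gate, while Cd209f and Cd209d were at 0 in the dividing cells. Whether some gate cells were microglia or border-associated macrophages was not tested.

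Of the genes that define the gate, Ms4a7, a membrane protein of infiltrating macrophages, had a UMI in 77.4% of the dividing cells (median 38356 UMIs per cell), against 2.00% of 450 cells in a neuron gate (median 15087 UMIs). Arg1, arginase 1 of repair macrophages, had one in only 23 dividing cells (21.7%), against 0.444% in the neuron gate. Arg1 was carried by a few mice. Its level in dividing cells was 0, 2.76, 64.2 and 21.4 CPM in the control mice and 340, 11, 122 and 5.29 in the ancrod mice, after trimmed-mean (TMM) scaling of the sums. The groups overlapped, and 1 ancrod mouse held the highest value. Gpnmb, a lysosomal glycoprotein of lipid-laden macrophages, was detected in 90.6% and Fabp5, a fatty acid carrier, in 98.1%. In 23 of the 106 dividing cells (21.7%) neither Ms4a7 nor Arg1 was seen, so those cells entered through Gpnmb and Fabp5, as did 22.9% of the non-dividing cells. The median gate sum was 36.2 per 10000 UMIs in dividing and 55.5 in non-dividing cells. At the edge of the gate, 12 dividing cells had a sum between 10 and 15.

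The 5 cycle genes that chose the cells share letters in their promoters. Windows from 250 bases before to 50 after the gene start were read from RefSeq, build GRCm38.p6, and searched on both strands for 3 kinds of motif. The cell cycle homology region (CHR) was TTTGAA with its variant form TTTAAA on either strand. The motif of NF-Y was CCAAT alone. The motif of E2F was TTGGCGC in its usual form, with TTCGCGC as a first variant form and TTCCCGC as another. All 5 windows held a CHR and a CCAAT match, where 27.59% and 37.41% of 32851 windows of 27025 genes did, and 10.73% held both. An E2F match lay in 2 of the 5 against 8.073% of all windows. The windows of Top2a, Cdk1 and Ccnb2 are shown because these genes chose the cells. That of Plk1, a mitotic kinase, is shown because its level followed the 5 genes most closely over the 16 sums of mouse and state. That of Pclaf is shown because it led the 10 rises named outside the rule and the cell cycle lists. Capitals mark the motif matches, and letters run 5′ to 3′ on the gene's strand.
Top2a (chr11:99024140-99024439, minus strand): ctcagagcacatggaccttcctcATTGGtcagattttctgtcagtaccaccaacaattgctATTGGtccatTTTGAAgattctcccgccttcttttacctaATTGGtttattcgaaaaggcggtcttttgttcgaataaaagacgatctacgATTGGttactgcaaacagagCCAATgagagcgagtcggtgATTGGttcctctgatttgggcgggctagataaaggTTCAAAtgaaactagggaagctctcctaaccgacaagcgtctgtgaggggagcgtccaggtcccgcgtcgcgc
Cdk1 (chr10:69352863-69353162, minus strand): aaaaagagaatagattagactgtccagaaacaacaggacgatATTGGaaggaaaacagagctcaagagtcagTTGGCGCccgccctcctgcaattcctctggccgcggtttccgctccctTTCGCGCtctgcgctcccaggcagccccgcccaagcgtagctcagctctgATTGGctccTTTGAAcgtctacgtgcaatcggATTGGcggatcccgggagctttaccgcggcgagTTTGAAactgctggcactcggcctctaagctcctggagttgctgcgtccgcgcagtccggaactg
Ccnb2 (chr9:70421505-70421804, minus strand): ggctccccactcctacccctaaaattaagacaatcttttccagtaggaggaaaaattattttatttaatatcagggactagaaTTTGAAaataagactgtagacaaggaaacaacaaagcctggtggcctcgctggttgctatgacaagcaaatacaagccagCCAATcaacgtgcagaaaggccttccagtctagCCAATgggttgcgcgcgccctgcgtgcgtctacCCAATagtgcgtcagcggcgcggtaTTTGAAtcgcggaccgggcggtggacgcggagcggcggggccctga
Plk1 (chr7:122159185-122159484, plus strand): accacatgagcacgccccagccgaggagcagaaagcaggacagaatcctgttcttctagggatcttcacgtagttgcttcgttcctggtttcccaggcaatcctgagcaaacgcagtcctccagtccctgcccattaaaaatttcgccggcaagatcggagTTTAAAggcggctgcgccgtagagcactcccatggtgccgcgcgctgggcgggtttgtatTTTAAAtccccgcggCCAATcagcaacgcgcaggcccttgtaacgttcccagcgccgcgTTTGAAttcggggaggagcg
Pclaf (chr9:65890073-65890372, plus strand): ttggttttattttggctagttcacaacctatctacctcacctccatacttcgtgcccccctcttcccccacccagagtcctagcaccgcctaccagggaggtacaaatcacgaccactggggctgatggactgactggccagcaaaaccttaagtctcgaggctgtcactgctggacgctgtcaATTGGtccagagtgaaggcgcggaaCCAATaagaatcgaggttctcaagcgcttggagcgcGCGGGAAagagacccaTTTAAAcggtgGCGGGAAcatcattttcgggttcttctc

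Top2a held 6 CCAAT and 2 CHR matches, Cdk1 held 3 and 2 with 2 E2F matches, and Ccnb2 held 3 and 2 with no E2F match. In the list of G2 and M genes (48 windows of 44 genes) 81.25% held a CHR match, 77.08% a CCAAT match and 12.5% an E2F match. In the list of S phase genes (40 windows of 35 genes) 25% held a CHR match, 60% a CCAAT match and 57.5% an E2F match. E2F and CCAAT matches can overlap, as in GCGCCAAT, and a match of letters says nothing of binding.

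Detection of the 5 genes graded the gate. None was seen in 1257 cells, 1 in 472, 2 in 114, 3 in 43, 4 in 19 and all 5 in 44. Just outside the rule, the cells with 2 genes had a median of 3 UMIs of the 5 genes, and just inside it those with 3 had 7. A list of 44 S phase genes summed to a median of 4.08 per 10000 UMIs with 2 genes and 13 with 3, and a list of 56 other G2 and M genes to 2.87 and 10.3. With 4 and 5 genes the G2 and M sum reached 51.4 and 60.8. Cells that a doublet caller marked were 6.14% of those with 2 genes, 2.33% with 3, 10.5% with 4 and 13.6% with 5. Cdk1 was the gene most often seen, in 88.7% of dividing and 15.7% of non-dividing cells, and Cenpf the least often, in 67.9% and 1.90%. In the neuron gate the 5 genes were seen in 0.889% to 3.33% of cells. These values follow from the rule and carry no test.

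The 106 cells differed in their cycle genes. Their S phase sum ran from 1.30 to 74.3 per 10000 UMIs with a median of 16.6, and their G2 and M sum from 0.341 to 223 with a median of 48.7. The G2 and M sum was the larger in 72 cells and the S phase sum in 34. The rule asks for genes such as the mitotic Cdk1 and Ccnb2, and the lists hold 56 and 44 genes. This split thus follows in part from the rule and the lists and carries no test. Set against the 95th percentile of the non-dividing cells, 19.9 for S phase and 12.7 for G2 and M, 36 cells were above both, 42 above G2 and M alone and 11 above S phase alone. The remaining 17 were at or below both, and 14 of these had exactly 3 of the 5 genes. Single genes of both phases were seen more often in dividing cells. Mcm5, part of the replicative helicase, was seen in 56.6% of dividing and 8.14% of non-dividing cells, and Ccne2, the cyclin of S phase entry, in 26.4% and 1.30%. Ccnb1, cyclin B1, was seen in 67.0% and 2.82%, and Cdc20, which starts anaphase, in 56.6% and 2.50%. Pcna, the sliding clamp, was seen in 89.6% and also in 67.2% of the non-dividing cells.

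**Figure D1:**
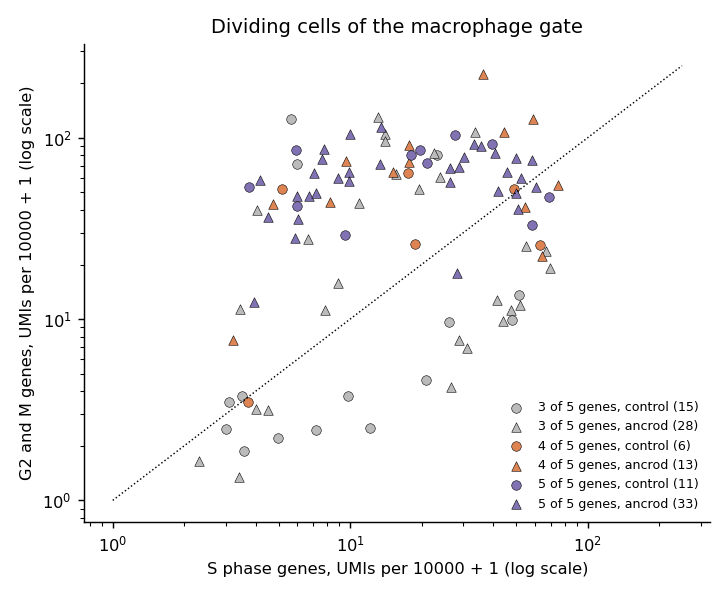
Summed UMIs per 10000 (plus 1, both axes logarithmic) of the S phase list and of the G2 and M list in each of the 106 dividing cells, coloured by how many of the 5 cycle genes were detected. The dotted line marks equal sums, and 72 cells lie on the G2 and M side of it. The choice of the 5 cycle genes and the lengths of the lists bear on this split.

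Mice differed in the makeup of their dividing cells. The S phase list summed to 1704, 2967, 1279 and 2239 CPM in the control mice and 2916, 504, 2599 and 3031 in the ancrod mice. The G2 and M list summed to 4715, 3662, 1683 and 3859 CPM and to 4207, 2408, 4759 and 4981. Control mouse 3 and ancrod mouse 2 were lowest on both lists, and the groups overlapped. In the non-dividing cells the S phase list lay between 321 and 459 CPM and the G2 and M list between 182 and 248.

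The genes that followed the 5 cycle genes most closely over the 16 sums (8 mice, 2 states) were Plk1, Ccnb1, Prc1 (a spindle midzone protein), Birc5 (survivin), Cdca3, Knstrn (a kinetochore protein), Stmn1 (stathmin), Hmmr, Tpx2 and Cep55 (both of spindle or midbody). Pearson r of log2 CPM was 0.99 for each, which the gap between the states sets. Over the 8 dividing sums alone r was 0.93 for Stmn1, 0.92 for Plk1 and 0.46 for Cep55. These are descriptions over sums that share libraries.

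Dividing cells carried more UMIs in most mice. Called after thinning every cell to 5000 UMIs, so that detection was at equal depth, their median UMIs exceeded those of non-dividing cells by 0.434 ± 0.438 log2 units (SD, n = 8 mice), 1.351-fold, in 6 of 8 mice (exact sign-flip permutation test, two-sided, p = 0.0391). The 2 exceptions were ancrod mice 1 and 2. These medians rest on few dividing cells, 2, 6, 2 and 1 in the control mice and 8, 2, 16 and 8 in the ancrod mice. The largest difference, 1.09 in control mouse 4, rests on 1 cell. The p rose above 0.05 when any of 6 mice was left out, to at most 0.0781. Called at full depth the ratio was 1.63, where depth itself helps a cell to pass the rule. A median of 5819 genes was detected in dividing and 4478 in non-dividing cells, and mitochondrial UMIs were 3.23% and 3.05%. A doublet caller marked 9 of the 106 cells (8.49%), against 4.56% of non-dividing gate cells and 4.91% of all droplets.

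The first question of the design is whether fibrinogen depletion changed the share of these cells. Shares of droplets do not give the number of cells in the tissue. After thinning, dividing cells made up 1.71%, 4.69%, 0.897% and 0.917% of gate cells in the control mice and 3.85%, 1.06%, 6.30% and 4.12% in the ancrod mice. The highest control and the lowest ancrod mouse broke the separation, so the groups overlapped. The means were 2.05 ± 1.80% and 3.83 ± 2.15% (SD, n = 4), and the difference did not exceed the spread between mice (exact permutation test, two-sided, p = 0.314, adjusted over 3 shares 0.314). At full depth the shares were 2.13%, 7.78%, 3.38% and 2.80% against 6.88%, 2.84%, 8.74% and 6.36%, with p = 0.314 in the same exact permutation test. Within batch 1 the thinned means were 2.43 ± 2.00% and 3.73 ± 2.62% (exact permutation p = 0.6, with 0.1 the smallest possible), and in batch 2 the ancrod mouse was 3.21 percentage points above the control mouse. Leaving out 1 mouse at a time, the difference of 1.78 points in the thinned shares ran from 0.957 without ancrod mouse 3 to 2.70 without ancrod mouse 2, with 2.66 without control mouse 2. Each share rests on 1 to 16 dividing cells. Its 95% exact binomial interval, which covers counting error only, ran from 0.0232% to 5.01% for control mouse 4 and from 3.64% to 10.0% for ancrod mouse 3.

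The gate itself made up 2.46%, 3.24%, 5.18% and 2.57% of droplets in control mice and 4.67%, 4.77%, 5.93% and 4.65% in ancrod mice. Control mouse 3 lay among the ancrod mice and the other 3 control mice lay below all of them. The means were 3.36 ± 1.26% and 5.00 ± 0.618% (exact permutation p = 0.114, adjusted 0.171), and without control mouse 3 the exact permutation p was 0.0286, the smallest that the design allows. Dividing gate cells were 0.0579 ± 0.0483% of all droplets with at least 5000 UMIs in control and 0.174 ± 0.111% in ancrod mice, 3.01-fold, which did not pass the test (exact permutation p = 0.0571, adjusted 0.171). The ratio was 5.10 without control mouse 2 and 2.20 without ancrod mouse 3, where the difference of 0.116 points fell to 0.0696. The paper states that shares of injury-site cells, macrophages among them, trended higher in its fibrinogen-depleted mice. It gives easier dissociation of a less fibrotic lesion as the likely reason, which was not tested here.

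**Figure D2:**
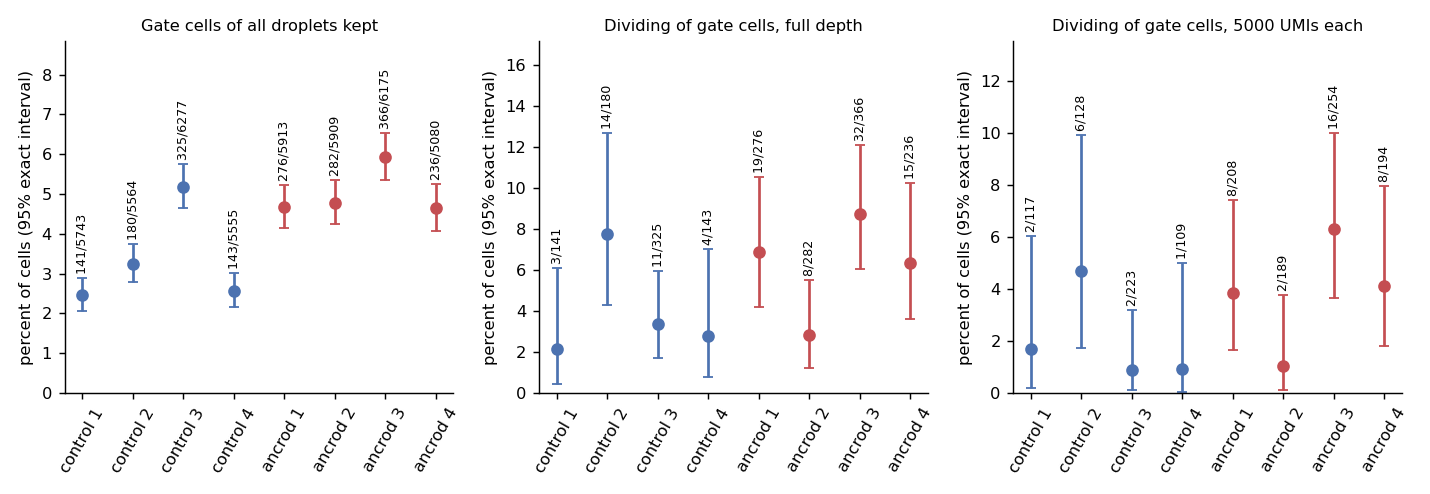
Percent of cells per mouse (points) with 95% exact binomial intervals (bars) for control and ancrod mice, in panels for the gate among all droplets, dividing cells among the gate at full depth, and dividing cells among the gate after thinning to 5000 UMIs. In each panel at least 1 control mouse lies within the range of the ancrod mice.

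Other gates also held dividing cells. After thinning, the dividing share over 8 mice was 2.94 ± 2.07% in the macrophage gate (45 of 1422 cells), 1.25 ± 0.486% in the microglia gate (190 of 14854), 3.05 ± 3.34% in the monocyte gate (45 of 1511), 9.83 ± 3.88% in a fibroblast gate (195 of 2064) and 0 of 386 cells in the neuron gate, which allows a share of up to 0.777% by counting error over the pooled cells alone. Paired within mice, the macrophage share was below the fibroblast share in 8 of 8 mice, by 6.88 percentage points (exact sign-flip permutation test, p = 0.0078, adjusted over 4 pairs 0.0156). The neuron gate held no dividing cell in any mouse after thinning and 2 of 450 without it, both in 1 mouse where they were 11.8% of the gate, so its comparison is with a count of 0. The excess of 1.69 points over microglia, in 6 of 8 mice, did not pass (permutation p = 0.0703, adjusted 0.0938), and the shares of macrophages and monocytes differed by 0.104 points (permutation p = 0.914). The fibroblast cells were the deepest, with a median of 43094 UMIs before thinning against 23802 in the macrophage gate.

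The second question is how the dividing macrophages differ from their non-dividing neighbours. UMIs were summed per mouse and state, giving 146137 to 1142140 UMIs per mouse for dividing and 3152614 to 7320960 for non-dividing cells, and edgeR's quasi-likelihood test with the mouse as a block was adjusted by Benjamini-Hochberg over all genes tested. CPM from here on are TMM-scaled unless said otherwise, a log2 difference is the fitted one of dividing minus non-dividing with its SE, and every adjusted p is from this test. Outside the rule and the cell cycle lists, 1636 of 9068 genes passed at 0.05 (18.0%), 913 higher (10.1%) and 723 lower (7.97%). The median difference of all genes tested was -0.01. With every cell thinned to 5000 UMIs, far fewer genes could be tested and 263 of 3988 passed, 57 higher and 206 lower, whereas cells of at least 20000 UMIs gave 1615, 844 higher and 771 lower.

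The 3 cell cycle lists vary with the genes that chose the cells, so their counts describe the rule. All 32 S phase genes tested were higher, with a median log2 difference of 2.28. Of 49 G2 and M genes 48 were higher (median 5.14), and of 29 genes of chromatin and tubulin 26 were (median 1.62).

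The largest rises outside these lists were in genes of several functions, replication among them. Genes such as Pclaf, H2ac8 and Gmnn also go with the cycle, so their rises describe the rule in part. Of 11 promoter windows of 8 of the 10 genes named, 81.8% held a CHR match and 72.7% both CHR and CCAAT. In all windows the shares were 27.59% and 10.73%. In 9 windows of 7 of the 10 largest falls, named below, they were 55.56% and 0%, so a CHR match alone was also frequent there. Pclaf, which binds PCNA at replication forks, ranged from 38.5 to 369 CPM in dividing cells with a median of 264, and from 1.68 to 6.54 with a median of 4.46 in non-dividing cells. The states did not overlap, although ancrod mouse 2 was far below the others. Its log2 difference was 5.73 ± 0.31 (adjusted p = 3.79e-09, 8 of 8 mice). H2ac8, an S phase histone whose reads may not be told apart from near-identical histone genes, rose by 5.03 ± 0.36. Tmpo, a protein of the nuclear lamina, rose by 2.76 ± 0.21 from a median of 23.7 to 192 CPM, and Gmnn, geminin, which blocks a second round of replication, by 2.26 ± 0.17. The other large rises were Lsm2 (an RNA splicing factor, 2.02 ± 0.16), Selenoh (a nucleolar selenoprotein, 1.83 ± 0.13), Ccdc34 (1.78 ± 0.14), Rad51b (recombination repair, 1.77 ± 0.21), Dtymk (thymidylate kinase, 1.71 ± 0.20) and Sae1 (of the SUMO-activating enzyme, 1.68 ± 0.15). None of these 10 overlapped between states. They are the largest of the 212 genes outside the rule and the cell cycle lists that rose in 8 of 8 mice with a mean over all 16 sums of at least 50 CPM. That limit leaves out Knstrn (4.80), Cdkn2c and Cep55, whose rise of 5.82 was larger than that of Pclaf.

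**Figure D3:**
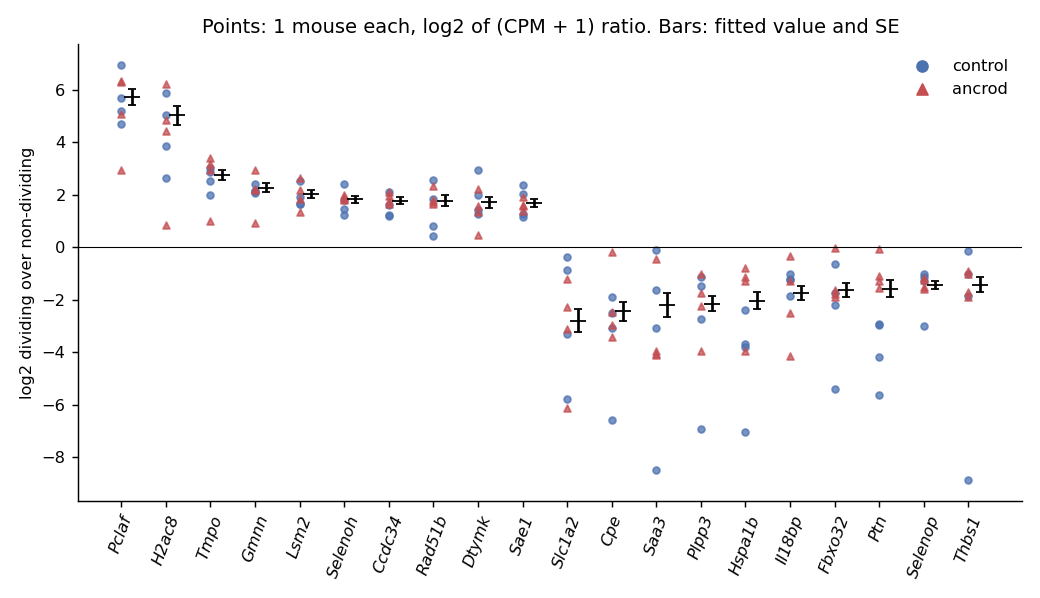
For each of the 10 largest rises and 10 largest falls, the log2 ratio of dividing to non-dividing CPM (each plus 1) in every mouse (points) with the fitted log2 difference ± SE. All points of the rises lie above 0 and all points of the falls below it, and the falls spread more widely between mice.

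Enzymes that make nucleotides were among the genes that rose. Of 20 tested, 10 rose and none fell, with a median of 0.71, where 10.1% of all genes rose and 7.97% fell. Mthfd2, of mitochondrial folate metabolism, rose by 1.42 ± 0.29, Mthfd1l of the same route by 1.19 ± 0.27, Impdh2, which commits IMP to guanine nucleotides, by 0.97 ± 0.21, and Shmt2, the mitochondrial serine hydroxymethyltransferase, by 0.96 ± 0.31. Impdh2 was at 11 to 66.9 CPM in dividing cells (median 51.1) and 21.2 to 32.6 in non-dividing cells (median 25.7). It overlapped through 1 mouse below the non-dividing range. Ribosome assembly moved likewise, with 7 of 15 genes higher, none lower and a median of 0.52. Dkc1 (dyskerin) rose by 1.04 ± 0.19, Nop58 by 1.00 ± 0.19, Nop56 by 0.97 ± 0.20 and Nhp2 by 0.87 ± 0.12, all parts of the particles that modify ribosomal RNA. Of 20 genes of the respiratory chain and citrate cycle 8 rose and none fell (median 0.31), led by Idh3a (0.90 ± 0.18), the electron carrier Cycs (0.72 ± 0.13) and Cyc1 (0.56 ± 0.14). These counts moved with the settings, although no gene of these 3 lists fell in any of them. Over 19 alternatives the rises ran from 5 to 15 for nucleotide enzymes, 4 to 10 for ribosome assembly and 3 to 11 for respiration. Nucleotide enzymes had 5 without ancrod mouse 1, 6 without ancrod mouse 3 or 4 and 5 with at least 4 cycle genes. Respiration had 3 without ancrod mouse 3 or 4, 4 without ancrod mouse 1 or control mouse 3, 5 without control mouse 4, 5 without called doublets and 3 without the low-count filter. Ribosome assembly had 4 without ancrod mouse 3. With cells thinned to 5000 UMIs 1 of 3 nucleotide genes rose, none of 6 ribosome genes and none of 18 respiration genes.

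Of 19 genes of glycolysis and hypoxia 3 rose and 2 fell, and of 10 polyamine genes 1 did each, against 10.1% higher and 7.97% lower over all genes, so that neither list is set apart by its count. Pgk1 rose by 0.58 ± 0.15 and Gapdh by 0.45 ± 0.11, both glycolytic enzymes, while Hilpda, a lipid droplet gene of the hypoxia response, fell by 0.90 ± 0.23 and Pfkl, liver phosphofructokinase, by 0.63 ± 0.15. Among the polyamine genes, spermine synthase Sms rose (0.77 ± 0.18) and arginase 2, Arg2, fell (by 0.71 ± 0.23). Of 11 iron genes 3 fell and none rose, namely Ncoa4, which delivers ferritin to lysosomes (by 0.53 ± 0.14), Slc11a1, an endosomal iron transporter (by 0.50 ± 0.12), and Fth1, ferritin heavy chain (by 0.32 ± 0.08).

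Of 21 inhibitors of the cycle tested 3 rose, near the share of 10.1% over all genes, and 6 fell, against 7.97%. The falls ran from 3 to 7 over the other settings. Cdkn2c and Cdkn2d, which hold back Cdk4 and Cdk6, rose by 2.73 ± 0.18 and 1.81 ± 0.16, and the pocket protein Rbl1 by 2.47 ± 0.30. Cdkn2c was at 26.6 to 118 CPM in dividing cells (median 55.5) and at 5.37 to 13.8 in non-dividing cells (median 9.80), with no overlap. Gadd45a, a growth arrest gene, fell by 1.36 ± 0.25. Maf, a transcription factor of macrophages named after its values were seen, was at 98.7 to 258 CPM in dividing cells (median 144) and 156 to 289 in non-dividing cells (median 208). The states overlapped, and it was lower in 6 of 8 mice. Maf fell by 0.53 ± 0.17 (adjusted p = 0.0375).

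Of 12 genes of G1 entry 2 rose and 2 fell, a count near the shares over all genes (10.1% and 7.97%) that does not set the list apart. Cdk4 was at 93.5 to 160 CPM in dividing cells (median 132) and 53.7 to 78.8 in non-dividing cells (median 67.7). The states did not overlap, and it rose by 0.94 ± 0.11 (adjusted p = 2.05e-05). Cdk2, the S phase kinase, rose by 1.06 ± 0.32, and Mxd1 and Mxd4, which oppose Myc, fell by 0.76 ± 0.19 and 0.70 ± 0.20. No growth factor receptor or partner rose. Of 19 tested 5 fell. Among them were Csf2rb2 (by 0.87 ± 0.22) and Csf2rb (by 0.57 ± 0.16), beta chains in the receptor family of GM-CSF, IL-3 and IL-5. The adaptor Gab2 (by 0.71 ± 0.17) and the myeloid factor Cebpa (by 0.66 ± 0.15) also fell. Csf1r, the receptor for the macrophage growth factor CSF-1, named after its values were seen, was at 179 to 295 CPM in dividing and 207 to 320 in non-dividing cells. Its states overlapped almost wholly, with a log2 difference of -0.07 ± 0.12 (adjusted p = 0.756).

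**Figure D4:**
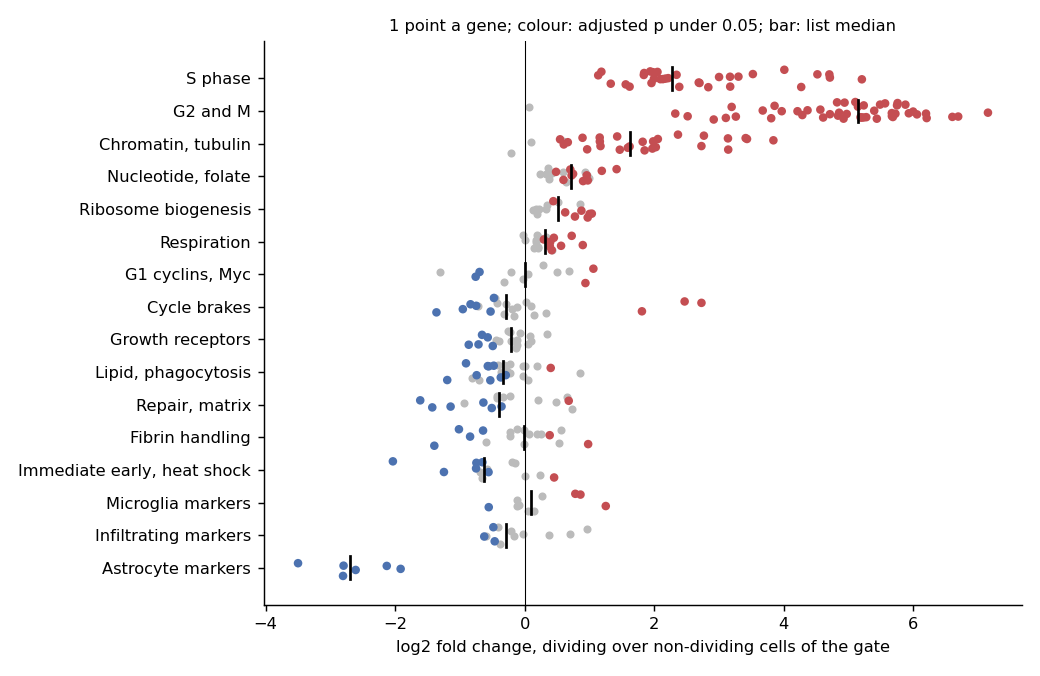
Fitted log2 difference (dividing minus non-dividing) of every gene tested in 16 lists, coloured where the adjusted p was under 0.05, with a bar at each list's median. The nucleotide, ribosome assembly and respiratory lists sit above 0, and the lipid and phagocyte and the repair lists below it.

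Several genes of lipid handling and phagocytosis fell. Of 24 tested 9 fell and 1 rose, with a median of -0.34, against 7.97% lower and 10.1% higher over all genes. The falls ran from 8 to 14 and the rises from 0 to 2 over the other settings. Pparg, a lipid-sensing nuclear receptor, fell by 1.20 ± 0.35 and Mertk, which takes up dead cells, by 0.91 ± 0.21. Apoe, the main lipid carrier of brain, was at 49566, 39218, 48332 and 58575 CPM in dividing cells of control mice and at 20735, 58296, 24556 and 40601 in those of ancrod mice, against 55214 to 85280 in non-dividing cells. It was lower in 7 of 8 mice and lowest in ancrod mice 1 and 3, and fell by 0.74 ± 0.14. Apoe was also abundant in droplets of at most 100 UMIs, at a median of 26411 CPM. The protease Ctsb fell by 0.57 ± 0.10, and Cd9, a tetraspanin and the 1 member that rose (0.40 ± 0.10), had a difference of -0.14 once cells were thinned.

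Of 16 repair genes 6 fell and 1 rose (median -0.40), against 7.97% lower and 10.1% higher over all genes. The falls ran from 4 to 8 and the rises from 0 to 2 over the other settings. Vegfa, the endothelial growth factor, fell by 1.61 ± 0.28, Thbs1, a matrix protein that activates TGF-β, by 1.43 ± 0.29 and Ecm1 by 1.15 ± 0.19, while Pdgfb, a growth factor for mural cells and fibroblasts, rose by 0.68 ± 0.20. Thbs1 was at 0, 203, 309 and 518 CPM in dividing cells of control mice and 360, 363, 222 and 190 in those of ancrod mice, with 467 to 828 in non-dividing cells. It was lower in all 8 mice, and control mouse 4 alone reached the non-dividing range. In the list of fibrin binding and fibrinolysis, the pathway that ancrod acts on, 4 of 17 fell and 2 rose, with 2 to 5 falls and 0 to 3 rises over the other settings. The rises are near the share over all genes. Thrombomodulin, Thbd, fell by 1.40 ± 0.38 and the integrin chain Itgav by 0.84 ± 0.16, and S100a10, which docks plasminogen, rose by 0.98 ± 0.31. Plaur, the urokinase receptor, was at 16 to 165 CPM in dividing cells (median 96.6) and 184 to 216 in non-dividing cells (median 195). It did not overlap and fell by 1.02 ± 0.20 (adjusted p = 0.00262).

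Of 18 inflammatory genes tested 1 fell and none rose, against 7.97% lower and 10.1% higher over all genes, and under thinning to 5000 UMIs 6 of 16 fell and 1 rose. The 1 that fell was Saa3, an acute-phase protein, which was at 0 to 105 CPM in dividing cells (median 13.6) and 108 to 362 in non-dividing cells (median 154). The fall, by 2.21 ± 0.47, came with dividing values that split between 3 mice near 100 CPM and 5 below 14. Of 15 interferon genes 1 fell, Rsad2 (by 1.30 ± 0.42), a count that ran from 0 to 7 over the other settings, with 3 by DESeq2, 5 without called doublets and 7 without the low-count filter. None of 6 MHC class II genes passed, but 3 fell by DESeq2 and 3 under thinning to 5000 UMIs. Cd74, the invariant chain, had -1.31 ± 0.62 (adjusted p = 0.159) and H2-Aa -1.37 ± 0.65 (adjusted p = 0.161).

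The remaining large falls were of mixed kinds. Selenop, a secreted selenium carrier, was at 159, 469, 450 and 604 CPM in dividing cells of control mice and 389, 341, 303 and 493 in those of ancrod mice, against 860 to 1278 in non-dividing cells. It did not overlap and fell by 1.44 ± 0.16 (adjusted p = 1.05e-05). Il18bp, which neutralises IL-18, fell by 1.74 ± 0.28 and Fbxo32, a ubiquitin ligase of atrophy, by 1.62 ± 0.27. Hspa1b, a heat shock protein near-identical to Hspa1a, fell by 2.04 ± 0.33 and Hspa1a by 1.25 ± 0.32. In the list of genes induced by tissue dissociation 6 of 14 fell and 1 rose, against 7.97% lower and 10.1% higher over all genes. Among the falls were Fos (by 0.75 ± 0.18) and Atf3 (by 0.75 ± 0.22). The falls ran from 3 to 9 and the rises from 0 to 1 over the other settings. With cells thinned, 9 of 14 fell and none rose. The list summed to 3995 to 12010 CPM in dividing and 5390 to 8851 in non-dividing cells before TMM scaling.

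The falls named were the 10 largest under the same limit of 50 CPM over the 16 sums, a limit that leaves out larger falls such as those of Aldoc and, at -4.93, Ccl5. The other 4 of them are genes abundant in astrocytes and other neural cells. Slc1a2, the glutamate transporter, fell by 2.81 ± 0.44, Cpe, carboxypeptidase E, by 2.44 ± 0.37, Plpp3, a lipid phosphatase, by 2.15 ± 0.29, and Ptn, pleiotrophin, by 1.58 ± 0.33. Slc1a2 ranged from 3.96 to 187 CPM in dividing cells and from 6.49 to 430 in non-dividing cells. All 6 tested genes of the astrocyte list fell, Aldoc by 3.50 ± 0.29 and Gfap by 2.80 ± 0.37 among them, against 7.97% of all genes. All 7 of the list were detected, and it summed to 12.9 to 456 library CPM (median 26.4) in dividing and 30.1 to 1017 (median 488) in non-dividing cells. In droplets of at most 100 UMIs these 4 genes were plentiful, at median CPM of 1350, 733, 381 and 835. In cells of at least 20000 UMIs the astrocyte list summed to 13.5 to 132 and 14.4 to 489. The part of free RNA and of doublets in these falls was not tested.

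Markers of other cells were checked beside these results. Of 12 genes of infiltrating macrophages outside the rule 3 fell, the hyaluronan receptor Cd44 (by 0.63 ± 0.12), Lyz2 (by 0.49 ± 0.10) and the oxidase chain Cybb (by 0.46 ± 0.09), and none rose. The list summed to 22071 to 34605 library CPM in dividing and 25537 to 38872 in non-dividing cells. Of 10 microglia markers 3 rose and 1 fell, against 10.1% higher and 7.97% lower over all genes. The rises numbered 1 without called doublets and 1 with at least 4 cycle genes (Cx3cr1 in both), 1 without ancrod mouse 4 and 0 under thinning. Cx3cr1, the fractalkine receptor, was at 279, 279, 512 and 422 CPM in dividing cells of control mice and 287, 467, 380 and 544 in those of ancrod mice. Every value was above the non-dividing range of 157 to 275, and it rose by 0.86 ± 0.12 (adjusted p = 0.000172). Sparc, a matrix protein of microglia, rose by 1.25 ± 0.33, Gpr34, a lysophospholipid receptor, by 0.78 ± 0.23, and Trem2, a lipid receptor, fell by 0.56 ± 0.12. All 12 microglia markers summed to 3230 to 6563 library CPM in dividing and 4281 to 5270 in non-dividing cells.

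Of the markers of other blood cells, all 3 neutrophil genes tested fell, against 7.97% of all genes. S100a8 fell by 1.53 ± 0.30, Csf3r by 0.77 ± 0.15 and Mmp8 by 0.63 ± 0.19. The neutrophil list of 7 summed to 84.0 to 164 library CPM in dividing and 172 to 356 in non-dividing cells, with Retnlg at 0 in dividing cells. Haptoglobin, Hp, fell (by 1.20 ± 0.28) among 5 monocyte genes tested, and 2 of 5 genes of border-associated macrophages did, F13a1 by 0.64 ± 0.19 among them. The mural gene Rgs5 fell by 3.23 ± 0.57 at a low level, with a median of 0.410 CPM in dividing and 20.9 in non-dividing cells. None passed of 2 fibroblast, 6 endothelial and 1 oligodendrocyte genes, and dendritic, lymphocyte and neuron markers were too low to test, at sums of at most 18.0 library CPM in dividing cells. The part of other cells in the state differences was not tested beyond these values.

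The dividing minus non-dividing difference was also compared with that in the microglia gate in 1 fit, a comparison chosen after the data were seen. It differed for 1793 of 10816 genes (16.6%), with 877 higher (8.11%) and 916 lower (8.47%) in the macrophage gate. The split was 442 to 806 without ancrod mouse 3, 498 to 827 without ancrod mouse 1, 626 to 973 without control mouse 3 and 426 to 1119 without the low-count filter. These counts leave out the rule genes but hold the cell cycle lists. Of 56 G2 and M genes 26 were lower and 4 higher (median -0.97). Of 44 S phase genes 12 were lower and 2 higher (median -0.58), and of the 5 cycle genes of the rule 3 were lower and none higher. The dividing cells of the 2 gates thus differed in their cycle genes. The part of this in the other differences was not tested. Spp1, osteopontin, was at 50343 ± 13621 CPM in non-dividing and 51471 ± 21974 in dividing macrophages, with 4 of 8 mice higher. In microglia it went from 1813 ± 547 to 11356 ± 5168. The difference of the differences was -2.63 ± 0.31 (adjusted p = 1.21e-05). Lgals3, galectin 3, moved likewise (-1.78 ± 0.19), with 1.67 ± 0.14 in microglia and -0.03 ± 0.12 in macrophages.

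Of 12 genes of infiltrating macrophages 7 were lower in this comparison and none higher, as for Cd44 (-1.63 ± 0.17), Cybb (-1.17 ± 0.15) and Lyz2 (-0.95 ± 0.17). Over all genes 8.47% were lower and 8.11% higher. Of 24 lipid and phagocyte genes 11 were lower and none higher (median -0.67), and of 19 glycolysis and hypoxia genes 9 were lower and 1, Hk2, higher. Of 12 microglia markers 4 were higher and none lower. Cx3cr1 rose in dividing macrophages and was lower in dividing microglia by 0.46 ± 0.09 (difference 1.24 ± 0.13, adjusted p = 2.95e-06), Sparc had 1.62 ± 0.33 and Gpr34 1.36 ± 0.21. Hpgd, which degrades prostaglandins, had 2.86 ± 0.34. Ccl5, a chemokine, was lower by 4.59 ± 0.89, from 50.4 ± 28.3 to 1.13 ± 1.11 CPM in macrophages. The macrophage gate sets a floor on Gpnmb and Fabp5 and the microglia gate a ceiling on Ms4a7 and Arg1. The macrophage gate also caps P2ry12, Tmem119, Sall1 and Siglech below 1, where the microglia gate asks for at least 3. The part of these limits was not tested.

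**Figure D5:**
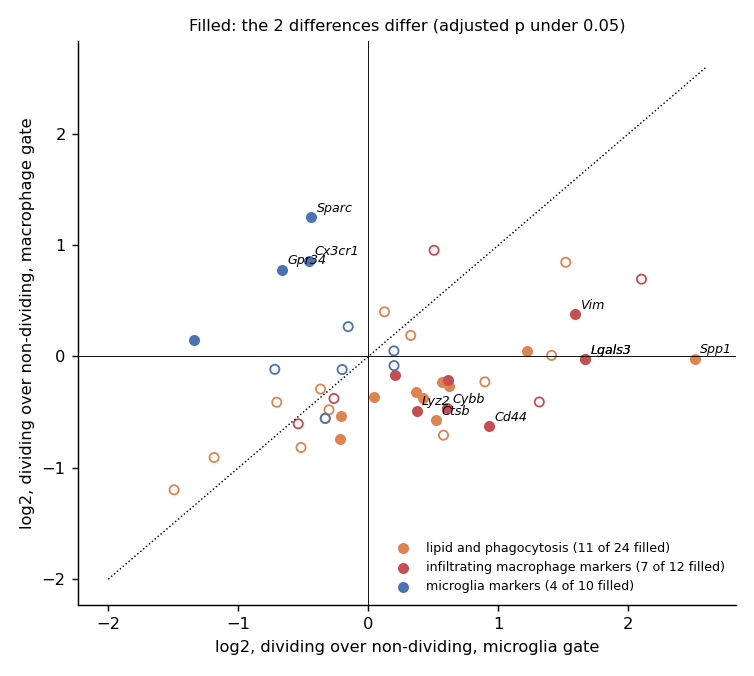
Fitted log2 difference of dividing minus non-dividing cells in the microglia gate (horizontal) and in the macrophage gate (vertical) for the genes of 3 lists, filled where the difference between the gates passed at an adjusted p under 0.05. The 7 filled markers of infiltrating macrophages and the 11 filled lipid and phagocyte genes lie below the line of equality, and the 4 filled microglia markers, of the 10 tested in both fits, lie above it.

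The last question is whether ancrod changed the dividing cells themselves. Mice with at least 10 of them were compared, control mice 2 and 3 with ancrod mice 1, 3 and 4. None of 7442 genes passed edgeR's quasi-likelihood test (0%), with 556 at an unadjusted p under 0.05 (7.47%) and 13 called by DESeq2. Groups of 2 and 3 mice separate easily, and 889 genes (11.9%) were higher and 883 (11.9%) lower in ancrod mice without overlap. In non-dividing cells of all 8 mice none of 10826 passed (0%), with 540 at an unadjusted p under 0.05 (4.99%), and 13 by DESeq2. There 116 genes (1.07%) were higher and 133 (1.23%) lower in ancrod mice without overlap. The test of whether the ancrod effect differed between the states called none of 10043 (0%), with 360 at an unadjusted p under 0.05, and none by DESeq2.

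The genes with the smallest p among those without overlap are given as values. Il1rn, the IL-1 receptor antagonist, was at 99.4 and 85.7 CPM in the dividing cells of control mice 2 and 3 and at 7.91, 14.8 and 3.52 in ancrod mice 1, 3 and 4, a log2 difference of ancrod minus control of -3.24 ± 0.40 (adjusted p = 0.0584). In the mice left out for too few cells it was at 6.64 and 0 in control and 22.0 in ancrod, so that the groups overlap over all 8. Cd36, a scavenger receptor for lipid, was at 31.7 and 26.2 CPM in those control mice and 286, 247 and 107 in those ancrod mice, with 120 and 5.34 in the control mice and 0 in the ancrod mouse left out. Its difference was 2.86 ± 0.44 (adjusted p = 0.112). Ccr2, the receptor that brings monocytes into tissue, had 2.20 higher in ancrod mice and -0.18 with all 8 mice, since control mouse 1 stood at 292 CPM. The others were Tex14 (-3.22), Kctd12 (-1.41), Ptgs2 (-1.92) and Slc37a2 (-1.39), lower in ancrod mice, and Isg15 (2.58) and Fabp4 (3.42), higher in them, and none of these passed. Ptn, with 1 and 0 UMIs in those control mice and 36, 92 and 14 in those ancrod mice, is given without a fold and did not pass either (adjusted p = 0.112). In the non-dividing cells of all 8 mice Ptn was also higher in ancrod mice without overlap, at a mean of 121 against 48.0 CPM, and did not pass. All 7 astrocyte markers had higher values there too (log2 0.87 to 1.68, median 1.08), and none passed. Cd36 and Fabp4 are also genes of endothelial cells, so endothelial markers are given beside them. All 6 tested endothelial markers had higher values in the ancrod mice of this comparison (log2 1.67 to 4.81, median 3.35), and none passed. In the non-dividing cells of all 8 mice the direction was the opposite. There all 7 had lower values in ancrod mice (log2 -1.75 to -0.72, median -1.40), and none passed. The 7 markers of the list, all detected, summed to 20.5, 42.2, 12.9 and 70.4 library CPM in dividing cells of control mice and to 657, 24.0, 27.1 and 430 in those of ancrod mice. Ancrod mice 1 and 4 stood apart, while ancrod mouse 3, with Cd36 at 247 CPM, lay within the control range at 27.1. The part of endothelial cells in these differences was not tested. Without called doublets the sums were 12.9 to 81.1 and 25.5 to 40.3, and the differences of Cd36 and Fabp4 were 2.99 and 2.87 (adjusted p = 0.0631 and 0.0637).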

How the data were processed

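Cells from the cortical lesion of 8 mice were measured by droplet single-cell RNA sequencing, 1 library per mouse. The authors deposited raw UMI counts per gene and barcode, including empty droplets. The submitters' processing notes name Cell Ranger 7.1.0, STAR and the builds mm39 and GRCm39. The count matrices held 21848 genes. Groups came from the sample labels, and the mouse was the replicate.

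Droplets were filtered and gated by fixed levels, with no clustering. Per 10000 UMIs, the microglia gate asked for at least 3 of P2ry12, Tmem119, Sall1 and Siglech. The monocyte gate asked for at least 3 of Ly6c2, Chil3 and Plac8 and the fibroblast gate for at least 30 of Col1a1 and Col1a2. The neuron gate asked for at least 5 of Snap25, Syt1 and Rbfox3. Each also had limits on other genes. For shares of dividing cells every cell was thinned to 5000 UMIs and shallower cells were left out, 13 dividing and 514 non-dividing gate cells among them. Doublets were scored with Scrublet in scanpy 1.11.5 and kept in the main result, with their removal as an alternative. Counts were summed per mouse and state and tested with edgeR 4.0.16 in R 4.3.3 (TMM, low-count filter, quasi-likelihood test, Benjamini-Hochberg), with DESeq2 1.42.0 as the alternative. Shares were compared by exact permutation over mice. The binomial intervals and the comparison of gates without a replicate block were from scipy 1.17.1. The edgeR tests were tried on simulated counts and the permutation tests on values with known answers, with outcomes not given here. Levels called library CPM, those of the marker check and the summed lists, are counts per 1000000 of the summed UMIs without TMM scaling.

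Named genes were the 2 to 4 list members of largest difference past the threshold (of highest CPM where none passed), the 10 largest rises and falls with a mean over the 16 sums of at least 50 CPM and 1 direction in all mice, the 10 genes correlated most closely with the 5 cycle genes, and for ancrod the 5 genes of smallest p per direction without overlap. For the comparison with microglia, genes were chosen after their values were seen. The members and all lists were chosen with earlier results of these data known. Promoter windows and their sequences are from RefSeq on GRCm38.p6, an older build than that of the counts, and were matched by symbol. Alternatives were other scalings and filters, stricter and looser rules, doublet removal, batch, replicate block and each mouse left out.

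Some measured genes are not reported here.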

Additional observations from a re-analysis of the deposited data

Results flagged for a closer look

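In 62 groups of 4 mice tested for 1 mouse far from the other 3, 5 were found, and chance gives about 1 in 20. The macrophage gate made up 5.93% of droplets in ancrod mouse 3, where the next ancrod mouse had 4.77%. Slc1a2, the astrocyte glutamate transporter, was at 106 CPM in the dividing cells of control mouse 1, which gave 3 such cells, against 8.28 in the next control mouse. Cpe was at 165 CPM in the dividing cells of ancrod mouse 2 against 15.6 in the next ancrod mouse, and Fbxo32 at 302 against 77.8 in the same mouse. Saa3 was at 96.9 CPM in ancrod mouse 4 against 13.9 in the next ancrod mouse.

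The difference between dividing and non-dividing cells was not the same in the macrophage and the microglia gate for 1793 genes, by a test of the difference itself that was chosen after the data were seen. Among the named genes the macrophage difference was below the microglia one for Spp1 (log2 -2.63), Lgals3 (-1.78) and Cd44 (-1.63), and above it for Cx3cr1 (1.24) and Hpgd (2.86).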

How the results depend on the processing

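The state comparison called 1636 genes. It called 1042 without ancrod mouse 3 and 1072 without ancrod mouse 4 (1042 to 1800 over mice left out 1 at a time) and 263 when cells were thinned to 5000 UMIs, where 3988 genes were tested. Without a low-count filter it called 697 higher and 1251 lower genes, a different split. Under thinning Cd9 turned to -0.14 and Hsp90aa1 to -0.042, and with all 8 mice the ancrod difference of Ccr2 in dividing cells turned to -0.18. The state differences of the named rises and falls and of the called list genes outside the cycle were followed through each setting. With 1 mouse left out, 161 gene results lost their call in the same direction and 788 kept it. Over the other settings 150 lost it, 1232 kept it and 2 reversed. Ancrod genes in dividing cells numbered 0 in the chosen fit, 13 by DESeq2, 231 without the filter, 1 with batch as a term, 1 with the bias-adjusted quasi-dispersions of edgeR 4, 2 in cells of at least 20000 UMIs and 0 to 29 over mice left out. With those deep cells, and without control mouse 2 or 3, 1 control mouse was left and assumed to vary like the others. They numbered 29 without control mouse 2, 2 without control mouse 3, 26 without ancrod mouse 3 and 5 without ancrod mouse 4. In non-dividing cells they numbered 13 by DESeq2 and 0 to 3 over mice left out. Ancrod effects differing between states numbered 12 without the filter, 1 when thinned and 0 to 28 over mice left out. Genes differing between gates numbered 1174 to 1899, with 1174 without control mouse 2. The gate share difference ran from 1.33 to 2.25 points over mice left out and passed without control mouse 3. The excess over microglia passed without a replicate block (1.69, permutation p = 0.0494), without thinning (2.74), with at least 2 cycle genes (2.78) and without control mouse 3 or 4 (range 1.25 to 2.02). The difference from monocytes turned to 0.0465 with at least 2 cycle genes and ran from -0.621 to 0.578 over mice left out. The excess over neurons missed the threshold without thinning (3.64) and with at least 2 cycle genes (3.92). The UMI difference ran from 0.34 to 0.525 log2 units over mice left out. The deviations of same-numbered mice correlated at -0.029 to 0.156 over 4 pairs, within the range of -0.277 to 0.338 for different numbers. So few pairs cannot exclude a pairing by number, and mouse 4 is batch 2 in both groups. With the replicate block the share differences had permutation p of 0.5, 0.125 and 0.25, where 0.125 is the smallest possible and no difference could pass, and 1 ancrod gene was called in non-dividing cells. The cause of these changes was not tested. The replicate block and the rule of at least 4 cycle genes could not be fitted for ancrod in dividing cells of the chosen mice. The dividing sums rest on 3 to 32 cells per mouse.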
